A study of Glycine max with 2 samples.

Results

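The sites of soybean chromosome 13 bound by the YAB1-like protein were described along the length of that chromosome. They were all peaks that the deposited peak list places on chromosome 13, 2300 of 31461, or 7.31% of the list on 4.83% of the total chromosome span. They were set against the 28958 peaks of the other 19 chromosomes. Each peak is a stretch where sequenced fragments from chromatin immunoprecipitation (ChIP-seq) piled up above a control, and its summit is the base with the highest pileup.

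The list came from 1 ChIP library, made with 10 µg of a rabbit antibody against a peptide of the YAB1-like protein. A library of total chromatin (input) from the same kind of material was the other sample, and no file of it was used here. Both were of replicate 1, while the series design speaks of 2 replicates, of which the other was not analysed here. The material was whole seeds of Glycine max, cultivar Williams 82, 1.0 to 1.5 mm long, whose embryos were globular, that is, still round and without cotyledons. They were fixed in 1% formaldehyde for 10 min. Whole seeds also hold endosperm and seed coat, so the sites cannot be assigned to a tissue. The antibody was polyclonal and occupancy by this protein was not checked by a second method here.

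YABBY proteins are plant transcription factors that bind DNA through a zinc finger and a helix-loop-helix-like YABBY domain. In Arabidopsis they are known for their part in setting the lower (abaxial) side of leaves and floral organs and in the growth of the outer integument, a layer of the ovule that becomes seed coat. Soybean chromosomes are known for middles rich in repeats and poor in genes, between arms rich in genes. Chromosome 13 is known as the carrier of the nucleolus organiser, the site of ribosomal RNA genes.

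Chromosome 13 held sites more densely than any other chromosome and held them in a different place. It had 50.2 peaks per Mb, against 32.5 ± 5.52 on the other 19 chromosomes (SD, 19 chromosomes), whose highest value was 45.5 on chromosome 11. Peaks covered 2.21% of its length, against 1.43% ± 0.245 elsewhere (SD, 19 chromosomes). The chromosome itself was of ordinary size: its last peak ended at 45.8 Mb, and 12 of the other 19 were longer. Since it was picked with this pattern known, and since 1 library gives no replicate, density and position are given as a description with no test. All spreads below are over chromosomes or are counting intervals within this library.

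The first, middle and last 33.3% of chromosome 13 held 166, 954 and 1180 peaks. The first stretch therefore had 7.22% of the peaks (Wilson 95% interval 6.23% to 8.35%), against 17.96% to 67.99% on the other 19 chromosomes. Its middle stretch had 41.5% (39.5% to 43.5%), against 6.35% to 17.2% elsewhere, with the highest of those on chromosome 8. In both stretches chromosome 13 lay outside the range of all 19 others. The share of the last stretch, 51.3%, was within their range of 20.4% to 73.6%. Its density was above their range, at 77.3 peaks per Mb, against 41.7 ± 13.7 (SD, 19 chromosomes) and at most 65.8, on chromosome 20. Wilson intervals treat peaks as independent, although neighbouring peaks are grouped, so they are narrower than the spread between regions.

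The rise along the chromosome was steep. In blocks of 10 Mb from its start, chromosome 13 had 4.30, 33.9, 70.4 and 76.8 peaks per Mb, and the last 5.78 Mb had 77.1 per Mb. Density thus changed most between the first and the third block and little after it. The first 10% of the peaks were reached only at 35.8% of the length, against 3.58% to 7.97% on the other chromosomes. The midpoint of the peaks, at 67.9% of the length, was not unusual, as that of the others lay between 20.3% and 80.7%.

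In bins of 10% of the length, the other 19 chromosomes had on average most peaks at both ends and fewest in the middle. Chromosome 13 had 6.12 peaks per Mb in its first bin, against 63.8 ± 14.5 elsewhere (SD, 19 chromosomes), and 2.18 in its second bin, against 52.7 ± 25.9. Between 40% and 50% of the length it had 69.5 per Mb, against 9.93 ± 6.89, and between 50% and 60% it had 59.6 per Mb, against 6.58 ± 3.45. All 19 others were higher in the first 2 bins, and all 19 were lower in the 2 bins from 40% to 60%. From 60% to 90% of the length chromosome 13 also exceeded all 19, with 64.9, 75.6 and 84.7 per Mb, against means of 9.63, 26.2 and 47.4. In its last bin it was above the mean of the others, with 78.9 per Mb against 61.8 ± 12.9, and only chromosome 10 was higher there. Between 20% and 30% of the length it was within the spread of the others, at 17.3 per Mb against 29.3 ± 26.2.

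**Figure D1:**
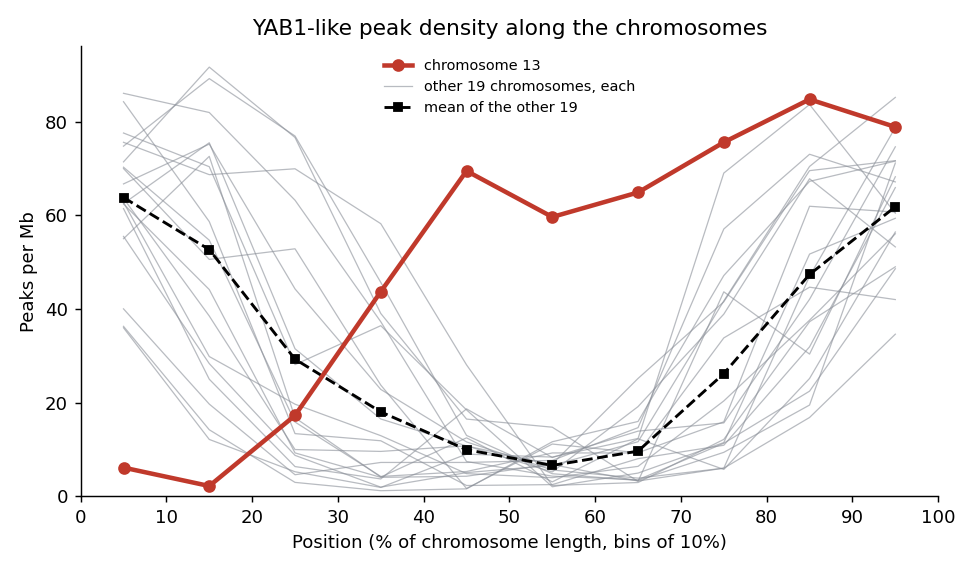
Peaks per Mb (vertical axis) in bins of 10% of the chromosome length (horizontal axis) for chromosome 13 (red), each of the other 19 chromosomes (grey) and their mean (black, dashed). Chromosome 13 lies below all others in the first 2 bins, at 6.12 and 2.18 per Mb, and above all of them from 40% to 90% of the length.

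Taken as 33.3% of the length, the sparse stretch at the start held about the same share of peaks as those of other chromosomes. It then held more peaks per Mb than most. For each chromosome, the contiguous 33.3% of its length with fewest peaks was located. On chromosome 13 it began at the first base and held 10.9 peaks per Mb and 7.22% of the peaks. On the other chromosomes it began between 5.65 Mb (chromosome 20) and 26.45 Mb (chromosome 15), and held 5.73 ± 1.88 peaks per Mb and 5.91% ± 1.79 of the peaks (SD, 19 chromosomes). In peaks per Mb only the sparse stretch of chromosome 11 was above that of chromosome 13. The stretch of chromosome 13 ended at 15.3 Mb, among fuller windows, and its first 10 Mb had 4.30 peaks per Mb. Its value thus depends on the width taken. What remained was dense: outside its sparse stretch, chromosome 13 had 69.9 peaks per Mb, against 45.9 ± 7.88 elsewhere, and the next highest was chromosome 11 with 62.8. This measure was chosen after the profile was seen.

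**Figure D2:**
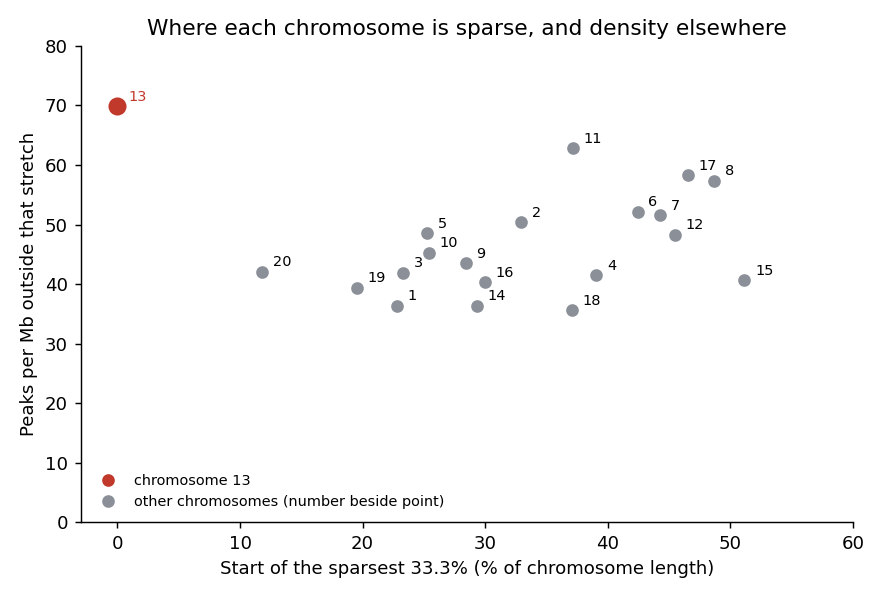
Start of the contiguous 33.3% with fewest peaks, as a percentage of chromosome length (horizontal axis), and peaks per Mb outside that stretch (vertical axis), 1 point per chromosome with its number. Chromosome 13 (red) has its sparse stretch at the very start and the highest density outside it, 69.9 per Mb.

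The start of chromosome 13 was the emptiest chromosome end. Its first 5 Mb held 28 peaks, or 5.60 per Mb, and its last 5 Mb held 388, or 77.6 per Mb. The other 39 chromosome ends had 63.2 ± 13.98 per Mb (SD), and the lowest of them, the last 5 Mb of chromosome 15, had 34.8. Thus 1 end of chromosome 13 was below the range of all other ends and its opposite end was within it.

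From 14 Mb to its end, chromosome 13 had no sparse window. It had 32 successive windows of 1 Mb with at least 22 peaks each, the median window of all 956 lying at 21.5. The longest such run elsewhere was 20 windows on chromosome 8, and the runs of the other 19 had a median of 14. Of its 46 windows, 23 had 58 or more peaks, against 209 of 910 elsewhere (22.97%). Of those 23, 22 lay among the 26 windows from 20 Mb to the end. Windows of 100 or more peaks numbered 4 on chromosome 13 and 8 on all other chromosomes together.

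The 5 fullest windows of chromosome 13 lay in its middle and last stretches. The window from 37000001 to 38000000 had 108 peaks, second in the list to a window of 123 on chromosome 10. The window from 42000001 to 43000000 had 102. Those from 34000001 to 35000000 and from 38000001 to 39000000 had 101 each, and that from 21000001 to 22000000 had 99. The 5 emptiest all lay between 3000001 and 9000000. The window from 3000001 to 4000000 had 0 peaks, those starting at 4000001 and 8000001 had 1 each, and those starting at 6000001 and 7000001 had 2 each. The longest distance between neighbouring summits, 1410 kb from 2768967 to 4178541, lay mostly there and began shortly before. It was shorter than the longest distance on 16 of the other 19 chromosomes.

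Single sites on chromosome 13 were about as strong as elsewhere. Strength is given as the caller's fold, the ChIP pileup over the pileup expected from the control with a pseudocount, and as the ratio of the recovered pileups without it. Median fold was 4.58 on chromosome 13, against 4.51 ± 0.0460 on the others (SD, 19 chromosomes), where chromosome 9 reached 4.59. Quartiles of fold were 3.92 and 5.62 on chromosome 13, against 3.92 and 5.49 over the other 19 together. All peaks had passed the same cutoff, which leaves medians little room to differ. Median width was 382 bp, against 373 ± 5.68 bp. A median summit held 20 ChIP fragments (95% Poisson interval 12.2 to 30.9), and the smallest held 12 (6.20 to 20.96), so the depth does not resolve small differences between single sites.

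Strong sites were as frequent as in the whole list. A fold of at least 10 was reached by 57 peaks of chromosome 13, or 2.48% (Wilson 95% interval 1.92% to 3.20%), the same as the 2.48% of the whole list. A fold of at least 6 was reached by 447 peaks, or 19.4% (17.9% to 21.1%), against 18.2% of the whole list. Along the chromosome, a fold of at least 10 was reached by 2 peaks of the first stretch (1.20%), 21 of the middle (2.20%) and 34 of the last (2.88%), and the Wilson intervals of the 3 shares overlapped. Median fold was 4.58, 4.50 and 4.66 in these stretches. A difference in strength between the sites of the first stretch and those of the other stretches was not resolved. The first stretch ended at 15.3 Mb and so took in part of the fuller windows from 14 Mb on.

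**Figure D3:**
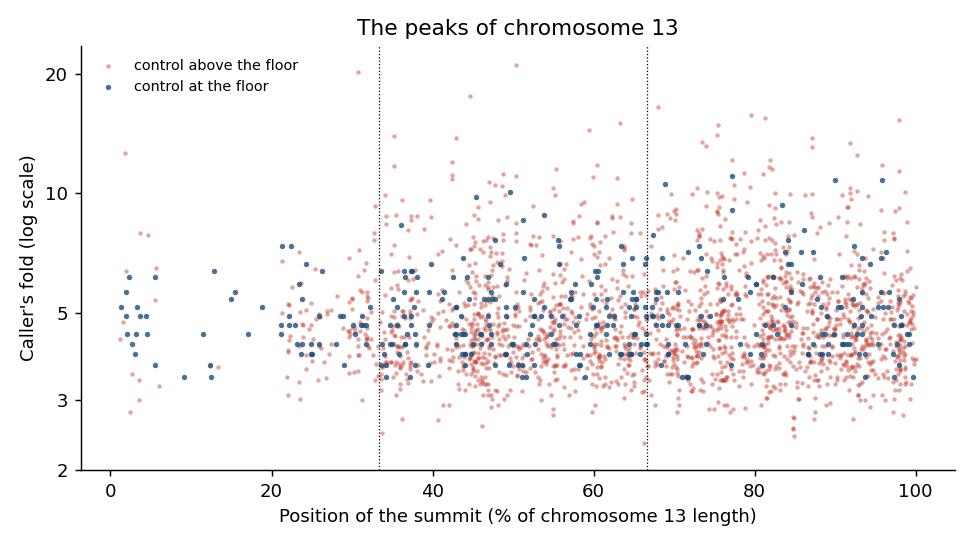
Caller's fold (vertical axis, log scale) of each of the 2300 peaks of chromosome 13 by the position of its summit in percent of the chromosome length (horizontal axis). Blue points have a control at the genome-wide floor, red points a control above it, and dotted lines part the first, middle and last stretch. Points thin out toward the start, while the band of folds around the median of 4.58 stays level.

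The strongest site of chromosome 13 lay in its middle, at 23039901 to 23041293. At the summit 90 ChIP fragments overlapped, against 3.32 expected, which gives a ratio of 27.1 (95% Poisson interval 21.8 to 33.4), and its fold of 21.1 ranked 12 in the whole list. It stood among 5 other peaks within 10 kb, and the nearest of them, 1494 bp away, had a fold of 5.62, close to the upper quartile of the chromosome.

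The next strongest lay near the end of the first stretch, at 14063071 to 14064048, in a window of 38 peaks. It had 107 fragments where 4.33 were expected, a ratio of 24.7 (20.2 to 29.8), and ranked 15 in the list. In the middle stretch followed 20423084 to 20424189 with a ratio of 22.4 (17.7 to 28.0), in a window of 96 peaks. The strongest of the last stretch, 31103963 to 31104630, had a ratio of 20.5 (16.2 to 25.5). The interval of the strongest peak overlapped those of all 9 others among the top 10, so the order within them was not resolved by counting error alone.

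The remaining 6 of the 10 strongest had ratios of 18.4 to 20.2. They lay at 36392609 to 36393894, 37233978 to 37234714, 44820407 to 44821726, 28954324 to 28955596, 34564223 to 34565063 and 27223281 to 27224269. The last of these had no other summit within 10 kb, and the others had 2 to 5. Of the 10, 1 lay in the first stretch, 4 in the middle and 5 in the last.

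Within the first 10 Mb, which held 43 peaks, 1 site stood out in fold. The peak at 835491 to 836044 had 55 fragments where 3.43 were expected, a ratio of 16.0 (12.1 to 20.8), and its nearest neighbour was 50953 bp away. The second there, at 1706694 to 1707140, had a ratio of 10.1 (6.92 to 14.3). Among all peaks of the chromosome these ranked 19 and 164 by fold. The first of them shows that a fold above 10 was also reached at an isolated summit.

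Sites of chromosome 13 lay close together, and in windows of 22 or more peaks about as close as in equally full windows elsewhere. Neighbouring summits were a median of 7.25 kb apart, against 8.90 ± 0.991 kb on the others (SD, 19 chromosomes), the shortest of all 20. Neighbours at most 2 kb apart made up 23.8% of the pairs (548 of 2299, Wilson 95% interval 22.1% to 25.6%), against 22.2% ± 0.931, and chromosome 6 was higher with 24.1%. At most 1 kb apart chromosome 13 was amid the others, with 10.3%, against 10.6% ± 0.558, where 11 of the 19 were higher and 8 lower. At most 5 kb apart chromosome 13 was above all 19 others, with 41.9%, against 38.6% ± 1.77 and at most 41.5%. Windows of like peak number were then compared. In windows of 58 to 123 peaks the share was 24.8%, against 23.7% ± 1.49, and in windows of 22 to 57 peaks 22.3%, against 20.7% ± 2.14. Both differences were smaller than the SD between chromosomes. In windows of 8 to 21 peaks it was lower on chromosome 13, 13.9% (7.96% to 23.2%, 79 peaks), against 20.2% ± 3.78.

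Summits at most 2 kb apart formed 391 chains with 939 peaks, 40.8% of the peaks of chromosome 13, against 38.5% ± 1.51 elsewhere (SD, 19 chromosomes). Most were pairs: 274 chains had 2 summits, 84 had 3, 28 had 4, 3 had 5 and 2 had 6. By position, 22 chains began in the first stretch, 175 in the middle and 194 in the last. These stretches held 7.22%, 41.5% and 51.3% of all peaks of the chromosome. Of the peaks in each, 32.5%, 43.1% and 40.2% were in chains. Chains of 3 or more summits made up 29.9% of its chains (117 of 391), against 25.3% ± 2.31 elsewhere and at most 29.6%, on chromosome 19. They took in 17.0% of its peaks, against 14.1% ± 1.26 and at most 16.8%, on chromosome 11. Chromosome 13 was thus narrowly the highest of the 20 in both shares, which were not compared in windows of like peak number. Its single longest chains, of 6 summits, were within the 5 to 12 of the longest chains elsewhere.

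Of the 2 chains of 6 summits, 1 ran from 34477581 to 34483548 with ratios of 5.74, 10.8, 8.22, 11.00, 4.10 and 12.6 in order of position. Its strongest and its weakest member were neighbours, 550 bp apart, with intervals of 9.15 to 17.0 and 2.39 to 6.57 that did not overlap. They were picked as the extremes of 6 members, so this is a description and no test. The other chain ran from 34671433 to 34677212 in the same 1 Mb window of 101 peaks. Its ratios were 4.95, 3.97, 5.86, 10.1, 6.49 and 9.35. In the first chain 4 of 6 members had a fold of at least 6 and the median fold was 7.82, against 4.58 over the chromosome. In the second chain 2 of 6 had such a fold and the median was 5.06. Over all peaks of chromosome 13 the share with such a fold was 19.4%. The 3 chains of 5 summits had 2, 1 and 0 such members in order of position. The median fold of each was below that of the chromosome, so long chains did not all hold strong sites.

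Among the 3 chains of 5 summits, the one with the highest fold ran from 14061373 to 14065556 and contained the strongest site of the first stretch. Its ratios were 7.27, 4.15, 24.7, 4.85 and 4.56. The Poisson intervals of the central summit and the next highest member, 20.2 to 29.8 and 5.06 to 10.1, did not overlap. Both members were picked by their values, so this is a description and no test.

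The control around the sites varied along chromosome 13. In the caller's scheme, the expected pileup of a peak cannot be lower than a genome-wide floor of 3.08 fragments. A peak at the floor is one around which the control exceeded the genome-wide average in none of the caller's windows. On chromosome 13 this held for 353 peaks, or 15.3% (Wilson 95% interval 13.9% to 16.9%), against 18.3% ± 2.34 on the others (SD, 19 chromosomes), and 2 of these were lower. The share was 32.5% (25.9% to 40.0%) in the first stretch, 17.8% (15.5% to 20.4%) in the middle and 10.9% (9.28% to 12.8%) in the last, and the 3 intervals did not overlap. Among the 43 peaks of the first 10 Mb it was 60.5% (45.6% to 73.6%). Fewest peaks and lowest control went together, and the part of the control level, or of how well reads can be placed, in the number of peaks was not tested.

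Set against windows with as many peaks, most of this was shared with other chromosomes. In windows of 58 to 123 peaks, 12.8% of the peaks of chromosome 13 were at the floor, against 12.6% ± 1.62 elsewhere (SD, 19 chromosomes). In windows of 22 to 57 peaks the values were 20.1% and 20.4% ± 2.58, and in windows of 8 to 21 peaks they were 34.2% and 33.2% ± 5.28. The windows with 7 peaks or fewer differed, with 75.0% (50.5% to 89.8%) of 16 peaks at the floor on chromosome 13, against 42.7% ± 8.74 elsewhere and at most 57.9%. That value rests on 16 peaks, and its interval reaches into the range of the others.

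**Figure D4:**
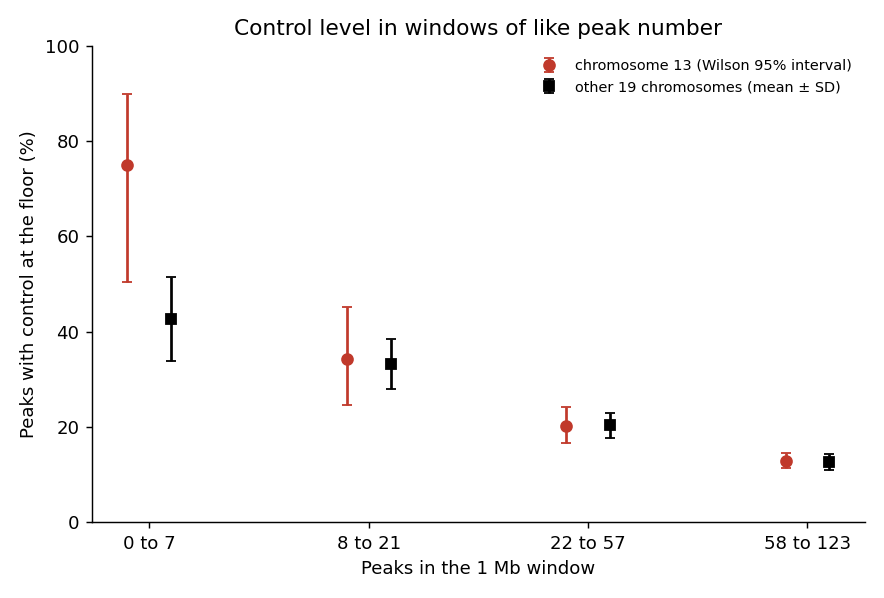
Share of peaks with the control at the floor (vertical axis) in 1 Mb windows grouped by peak number (horizontal axis), for chromosome 13 (red, Wilson 95% interval) and the other 19 chromosomes (black, mean ± SD over chromosomes). The values are alike in windows of 8 or more peaks, and chromosome 13 is higher in windows of 7 or fewer, where 16 peaks were counted.

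At the other extreme, 1 short stretch of chromosome 13 had a high control. Of the 26 peaks in the list whose expected pileup was at least 3 times the floor, 11 were on chromosome 13. That chromosome held 7.31% of the list. Expected pileups reached 65.96 fragments on the other 19 chromosomes, against 15.4 on chromosome 13. Of the 11 peaks, 10 were successive peaks between 38797999 and 38856279, a stretch of 58.3 kb. The remaining 1, at 30325879 to 30326153, was the weakest peak of the chromosome, with 23 fragments where 9.24 were expected and a ratio of 2.49 (1.58 to 3.74).

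In the 58.3 kb stretch the expected pileups were 11.3 to 15.4 fragments, 3.66 to 5.01 times the floor. The nearest peaks on either side, at 38746692 to 38747432 and 38943065 to 38943634, had expected pileups of 5.30 and 3.85. ChIP pileups in the stretch were 34 to 111, with a median of 42.5, against a median of 20 in the other 2290 peaks of chromosome 13. Ratios had a median of 3.39, against 5.61. ChIP and control were thus both high there, with a smaller ratio, and the ratio of a peak with a high expected pileup can pass the caller's cutoff at a lower value.

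The peak at 38849001 to 38851554 differed from its neighbours in the stretch. Its 111 ChIP fragments were the highest pileup of chromosome 13, against 13.3 expected, and its ratio of 8.37 (6.88 to 10.1) was the highest of the 10. The second, at 38813598 to 38814662, had a ratio of 5.06 (3.88 to 6.49), and these intervals, which take the control as fixed, did not overlap. Both peaks were picked by their rank among the 10, so this is a description and no test. The peak of 111 fragments was also the widest of the chromosome, at 2554 bp. The next widest lay outside this stretch, at 13565067 to 13566903 with 1837 bp and at 21466775 to 21468517 with 1743 bp, and had ratios of 8.60 (5.76 to 12.4) and 6.82 (4.22 to 10.4).

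**Figure D5:**
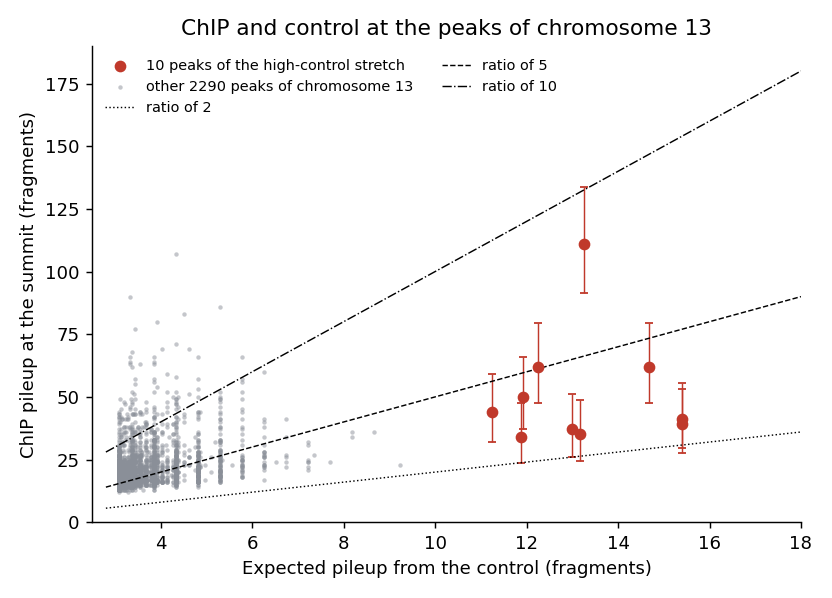
ChIP pileup at the summit (vertical axis, fragments) against the pileup expected from the control (horizontal axis, fragments) for the 10 peaks of the high-control stretch (red, Poisson 95% interval of the pileup) and the other 2290 peaks of chromosome 13 (grey), with lines of constant ratio. The 10 peaks stand apart in expected pileup, at 11.3 to 15.4, and the highest of them in ChIP pileup has 111 fragments.

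Apart from this stretch, high control was about as frequent at the sites of chromosome 13 as on other chromosomes. An expected pileup of at least 2 times the floor was found at 52 of its peaks (2.26%), against 438 (1.51%) of the peaks of the other 19 chromosomes. Without the 10 peaks of the stretch it was found at 42 of 2290 (1.83%). The other chromosomes had 1.53% ± 0.360 (SD, 19 chromosomes) and ranged from 1.09% to 2.40%. The value of chromosome 13 was thus within their range with or without the stretch.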

How the data were processed

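The submitters' processing notes name the aligner Bowtie 0.12.7, the toolkit SAMtools 0.1.18 and the peak caller MACS2. Not given in the sources used here were the settings, the handling of duplicates, the control library and the genome build. The deposited list gives each peak's position, summit, a score, a fold (a ratio of ChIP to expected pileup with a pseudocount) and −log10 p and q-values, all by the authors' caller. The lowest −log10 q-value was 2.03. Coordinates are 1-based on the sequences of that list. No genome of a named matching build was used, so no gene, annotation or sequence is given.

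ChIP and expected pileups were recovered from fold and p-value together. For 100% of peaks a whole pileup matched the deposited −log10 p within 0.0001, and every other whole number was off by 0.0135 or more. The same step recovered 100% of the pileups of 1998 simulated peaks. These were made with the formulas that the step inverts and then rounded, so they show only that rounding did no harm. Their expected pileups did not reach the highest of the list. A peak was at the floor within 0.0005 fragments. The first, middle and last stretch of a chromosome are counted from base 1 to the last peak end. Intervals are Wilson 95% for shares and exact Poisson 95% for pileups, with the expected pileup taken as fixed. The libraries carried no molecular identifiers, as far as the labels say, and PCR copies may be counted, so intervals cover counting error only. Each peak had passed the cutoff, and strong peaks were picked for high fold, so their pileups may be overstated.

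The members and measures were chosen with earlier results of these data known. Named regions were the 10 peaks of highest fold and the highest in each stretch, the 3 widest, the 3 chains with most summits (ties by fold), the 5 fullest and 5 emptiest windows, and all peaks with an expected pileup of at least 3 times the floor. The 2 highest peaks of the first 10 Mb and the flanks of the high-control stretch were added after values were seen, as were the measures on the sparsest stretch, the chromosome ends, the runs of windows and the control level in windows of like peak number. Python 3.11.15, NumPy 2.4.6, pandas 2.3.3, SciPy 1.17.1 and matplotlib 3.10.9 were used.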

Additional observations from a re-analysis of the deposited data

Results flagged for a closer look

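The 203 peaks on unplaced scaffolds, 0.645% of the list, had ChIP signal above the control, as every peak of the list has, but entered no comparison of chromosomes. They cannot be assigned to chromosome 13 or any other chromosome here.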

How the results depend on the processing

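Of 32 alternatives, 28 planned and 4 added after seeing the data, 18 left the value of chromosome 13 within its counting interval, within 1 SD of the chromosomes or within 1.5 times. In all 32, chromosome 13 kept the highest density of the 20 chromosomes, the lowest share in the first 33.3% and the highest in the middle 33.3%, wherever the alternative bore on these. With peaks of a −log10 q-value from 10 upward, density was 13.8 peaks per Mb (69.9 became 19.5 outside the sparse stretch), the middle share 37.4%, median fold 6.63, neighbours within 2 kb 9.79% and floor peaks 11.5%. At 5 or more, median fold was 4.95 and neighbours 18.97%, above all 19 others (at most 18.92%). Stricter cutoffs leave fewer and stronger peaks by construction. Without the fullest window the middle share was 43.5%. The median ratio without the pseudocount was 5.61. Floor peaks were 28.4% when an expected pileup up to 5% above the floor was counted. Neighbours were 14.1% after merging peaks within 500 bp, 41.9% within 5 kb and 10.3% within 1 kb, where 11 of the other 19 chromosomes were higher, against 1 as reported, and the cause was not tested. The order by median fold also varied, with 5 others higher at 10 or more. No paired analysis was possible because a single list, of replicate 1, was used here. A median pileup of 20 fragments limits what single sites can show.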
